A study of Mus musculus with 4 samples.

Results

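The genes described here are 10 members of the Notch pathway: the receptors Notch1, Notch2 and Notch3, the ligands Dll4 and Jag1, the nuclear partner Rbpj, and the effectors Hes1, Hes5, Hey1 and Heyl. They were chosen by name, with earlier results of these data known, and all 10 were found among the 31557 gene symbols of the deposited table. Levels are CPM, the gene's part of the summed read counts of all cells of a mouse, or of its cells of 1 class. A share is the percentage of cells with at least 1 count of the gene.

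Notch receptors are membrane proteins that are cut when a ligand of the Delta or Jagged family on a neighbouring cell binds them, and the freed inner part enters the nucleus. There it joins Rbpj, a DNA-binding protein, and the complex switches on genes of the Hes and Hey families, which are themselves repressors of transcription. In the adult dentate gyrus the pathway is known for keeping radial glia-like stem cells from turning into neurons. In blood vessels it is known for the choice between tip and stalk cells in endothelium and for the maturation of mural cells, the pericytes and smooth muscle cells around vessels.

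The antagomir mice were male nestin-GFP reporter mice that received a miR-132 antagomir, Ant-132, in the cerebral ventricle at 2 months of age. Ant-132 is an oligonucleotide with locked nucleic acids and cholesterol, meant to block the microRNA, and each mouse was given 2 µl of a solution of 0.33 nmol/ml. The controls were male nestin-GFP mice of the same age that received a scrambled locked nucleic acid oligonucleotide at a dose that the labels do not state. Cells of the dentate gyrus were sorted at 3 months, 96 wells per mouse from 4 antagomir and 4 scrambled mice, and sequenced by Smart-seq2. All 8 mice carried the reporter, so the cells are those in which the nestin promoter or its remaining GFP passed the sort, and not a sample of the whole tissue. The antagomir mice are numbered 2, 4, 6 and 8 and the scrambled mice 1, 3, 5 and 7. The mouse is the replicate, mice 1 to 4 were sorted on day 1 and mice 5 to 8 on day 2, and each of 2 pools, L5 and L6, held mice of both treatments from both days.

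Of 768 wells, 716 had between 500 and 6000 detected genes and were used, 353 of antagomir and 363 of scrambled mice. They held a median of 650777 counts and 2778.5 genes, and the kept wells of a mouse summed to between 43996495 and 69191485 counts. Counts of Nes, the gene behind the reporter, were present in 65.8% of kept cells, among them 96.3% of mural-like, 38.7% of RGL/astrocyte-like (radial glia-like or astrocyte-like) and 71.4% of oligodendrocyte-like cells. Since Smart-seq2 reads carry no molecular identifiers, a count is not a molecule, and the floors of 3 counts cover counting error of reads only. The Wilson 95% intervals given for shares cover the sampling of cells, pooled over mice as if independent. They leave out the spread between mice.

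Cells were clustered without any Notch pathway gene and named from marker genes. This gave 301 oligodendrocyte-like cells, 168 RGL/astrocyte-like, 87 endothelial-like, 82 mural-like, 25 neuroblast-like, 5 oligodendrocyte precursor-like and 12 fibroblast-like cells. The remaining 36 cells formed a cluster without a name. Its leading genes were Frzb, Slc38a1, Snhg4, Hmgb2 and Ccnd2, and 97.2% of its cells had counts of Nes. It held 14 RGL/astrocyte markers and 4 neuroblast markers in enough of its cells, but at a mean log2 difference from the other cells of 0.15 and 0.82, and a name needed one above 1. Of the RGL/astrocyte-like cells, 37 formed a cluster whose median cell had 881 genes and 11.5% of its counts from mitochondria, against 2806 genes in the other cluster. Comparisons between classes are therefore also given without those 37 cells where a call changed. The 4 largest named classes were tested, over 8 mice each, or 7 for endothelial-like cells because 1 scrambled mouse gave 3 of them.

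The sequences that bear on the design and on the pathway are shown first. The mature microRNA that the antagomir is directed against is mmu-miR-132-3p, encoded at chr11:75173723-75173744 on the plus strand (GRCm38.p6, RefSeq). Its seed, bases 2 to 8, is in capitals.
mmu-miR-132-3p: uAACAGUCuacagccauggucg
The DNA letters that pair with the seed, GACTGTT, occur once in the longest 3′ UTR of 3 of the 10 members in GENCODE M21 (GRCm38), and in that of 10.7% of 21092 genes. The match in Notch1 lies at chr2:26458716-26458722 on the minus strand, in a 3′ UTR of 1628 bases. That of Notch2 lies at chr3:98150086-98150092 on the plus strand, in 2917 bases, and that of Dll4 at chr2:119334959-119334965 on the plus strand, in 1329 bases. The matches are shown in capitals with their flanks, and a match is a description of letters and not a site shown to be bound.
Notch1: aacactgcctgGACTGTTctgtgcatccc
Notch2: gaatgtacgagGACTGTTtggaaggacac
Dll4: atggagctcttGACTGTTctccagagagt
The 3′ UTRs of Notch3, Jag1, Rbpj, Hes1, Hes5, Hey1 and Heyl did not hold these letters.

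RefSeq promoter windows, from 250 bases before the start of a gene to 50 after it, were at hand for 7 of the 10 members (GRCm38.p6). The letters GTGGGAA, a form of the Rbpj motif, were searched on both strands. They occurred in 6.38% of 32851 promoter windows and at least 2 times in 0.256%. The window of Hes5 at chr4:154960673-154960972, plus strand, held 2 matches, and those of Notch1, Notch2, Notch3, Dll4, Jag1 and Rbpj held 0. The window of Hes5 is shown because it was the only 1 of the 7 with a match. The matches are in capitals and begin 226 and 83 bases before the start site.
Hes5: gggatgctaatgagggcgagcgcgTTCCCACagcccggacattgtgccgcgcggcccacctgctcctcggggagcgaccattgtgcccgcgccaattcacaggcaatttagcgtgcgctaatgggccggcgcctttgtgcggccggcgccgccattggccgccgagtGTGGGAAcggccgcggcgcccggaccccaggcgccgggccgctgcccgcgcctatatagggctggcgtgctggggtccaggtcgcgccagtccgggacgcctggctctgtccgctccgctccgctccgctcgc

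Receptors were common in mural-like, endothelial-like and RGL/astrocyte-like cells, and effectors were present in all of these classes but in different combinations. Of mural-like cells, 80 of 82 had counts of at least 1 of the 3 receptors and 73 had counts of at least 1 of the 4 effectors. In RGL/astrocyte-like cells these were 139 and 96 of 168, and in endothelial-like cells 60 and 60 of 87. Of 301 oligodendrocyte-like cells, 71 had counts of a receptor and 5 of an effector, and of 25 neuroblast-like cells 8 and 1. The oligodendrocyte-like cells were the deepest, with a median of 830052 counts against 526669 to 565180 in the other tested classes.

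**Figure D1:**
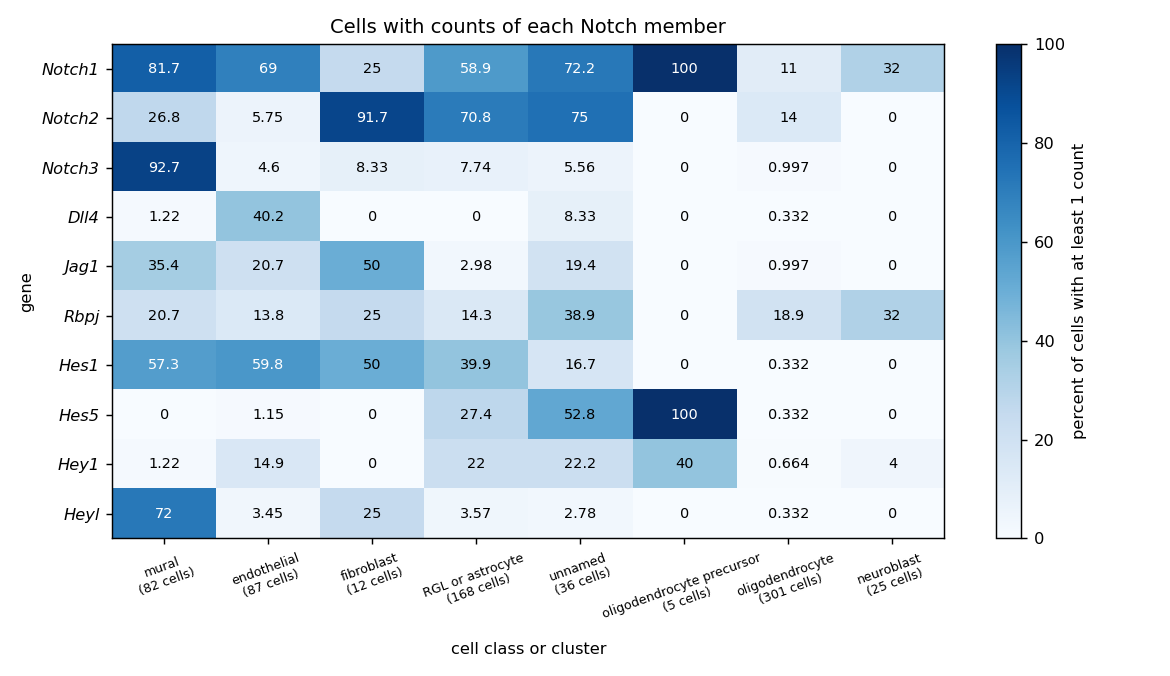
Percentage of cells with at least 1 count of each member (rows) in each cell class or cluster (columns, with the number of cells). Notch3 and Heyl stand high in mural cells (92.7% and 72.0%), Dll4 in endothelial cells (40.2%), and Hes5 in oligodendrocyte precursor, unnamed and RGL or astrocyte cells (100%, 52.8% and 27.4%).

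Between pairs of tested classes, edgeR's quasi-likelihood test was run on sums per mouse with Benjamini-Hochberg adjustment over 12093 genes. Against oligodendrocyte-like cells, 7 of 10 members were higher in RGL/astrocyte-like cells, where 9.33% of all tested genes were called in that direction. There were 5 of 10 higher in endothelial-like cells (7.61% of all genes) and 5 higher in mural-like cells (7.24%). No member was higher in oligodendrocyte-like cells than in any of these classes, where 7.96%, 17.8% and 18.6% of all genes were. The median log2 difference of the members, oligodendrocyte-like minus RGL/astrocyte-like, was -5.27, and that of all tested genes 0.26. Against endothelial-like cells the 2 medians were -4.63 and 1.37, and against mural-like cells -4.91 and 1.34.

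Notch1, the receptor of stem cells and of endothelium, was called above oligodendrocyte-like cells in each of the other 3 tested classes. Its level ran from 887 to 1329.6 CPM in mural-like cells (median 1065), from 366 to 1281 in endothelial-like (median 511), from 252 to 574 in RGL/astrocyte-like (median 369) and from 0 to 46.8 in oligodendrocyte-like cells (median 16.4). The mural-like range lay wholly above that of the RGL/astrocyte-like cells, and all 3 ranges lay above that of the oligodendrocyte-like cells. The mean was 364 ± 112 CPM in RGL/astrocyte-like and 19.7 ± 15.6 CPM in oligodendrocyte-like cells (SD, n = 8 mice each), a difference of 4.30 on the log2 scale (95% interval 2.82 to 5.78, edgeR adjusted p = 7.88e-05). The order mural, endothelial, RGL or astrocyte was not called by edgeR between neighbours (adjusted p = 0.654 and 0.616). Mural-like over RGL/astrocyte-like cells was not called by edgeR either (adjusted p = 0.205). An exact two-sided sign-flip test over mice on log2(CPM + 1) gave p = 0.0469 for mural over endothelial-like cells, higher in 6 of 7 mice. The same exact test gave p = 0.0156 for endothelial over RGL/astrocyte-like cells, higher in 7 of 7 mice, which is the smallest p that 7 mice allow. These exact p-values are unadjusted, and 60 pairs of classes were compared over the 10 members.

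Notch2, a receptor known in stem cells for holding them in quiescence, was detected in 70.8% of RGL/astrocyte-like cells (Wilson interval 63.6% to 77.2%), in 75.0% of the unnamed cluster (58.9% to 86.2%) and in 11 of 12 fibroblast-like cells. It was detected in 26.8% of mural-like, 14.0% of oligodendrocyte-like and 5.75% of endothelial-like cells, and in 0 of 25 neuroblast-like cells, which allows a share of up to 12%. Its level ran from 123 to 281 CPM in RGL/astrocyte-like cells (median 139), from 0.878 to 191 in mural-like (median 71.7), from 0 to 71.6 in endothelial-like (median 0) and from 0.163 to 16.1 in oligodendrocyte-like cells (median 2.19). The RGL/astrocyte-like range lay above the last 2 and overlapped that of the mural-like cells. Mean levels were 177 ± 63.1 CPM in RGL/astrocyte-like cells (SD, n = 8), 11.9 ± 26.7 in endothelial-like (n = 7) and 5.03 ± 5.85 in oligodendrocyte-like cells (n = 8), with edgeR adjusted p = 0.0117 against endothelial-like and 0.0122 against oligodendrocyte-like cells. Mural-like cells were not called against oligodendrocyte-like (adjusted p = 0.0567) or endothelial-like cells (0.0926). The first pair was called without mouse 4, 6 or 8 (0.0498, 0.0408 and 0.0199), and the second without mouse 2 or 4 (0.0398 and 0.0113). With wells of at least 1000 genes both were called (0.00505 and 0.0377), and with DESeq2 size factors in edgeR the first was (0.0402).

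Notch3, a receptor of vascular smooth muscle and pericytes, was detected in 76 of 82 mural-like cells (92.7%, Wilson interval 84.9% to 96.6%). Its level ran from 286 to 974 CPM over 8 mice (median 734), against 0 to 34.5 CPM in endothelial-like and 0 to 12.2 CPM in RGL/astrocyte-like cells. No other tested class reached the lowest mural-like mouse. The mean of 641 ± 263 CPM in mural-like cells was 122 times that in endothelial-like cells, 5.25 ± 12.9 CPM (edgeR adjusted p = 0.00112), and adjusted p was 7.65e-04 against RGL/astrocyte-like cells. The low level in RGL/astrocyte-like cells, 3.72 ± 4.63 CPM with counts in 5 of 8 mice, was itself called above that in oligodendrocyte-like cells, 0.0282 ± 0.0468 CPM (adjusted p = 0.0150). The exact sign-flip test gave p = 0.0625 for that pair, higher in 5 of 8 mice. Mural-like cells comprised a cluster of 74 led by Abcc9 and Kcnj8, genes of pericytes, and a cluster of 8 led by Acta2 and Myh11, genes of smooth muscle. Notch3 was detected in 91.9% of the cells in the cluster of 74 and in 8 of the other 8.

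The ligand Dll4, which is made by endothelial tip cells and arteries, was found in 35 of 87 endothelial-like cells (40.2%, Wilson interval 30.6% to 50.7%). Its level ran from 94.4 to 531 CPM over 7 mice (median 288). Outside endothelium it was detected in 1 of 82 mural-like and 1 of 301 oligodendrocyte-like cells, each with 1 count, and in 0 of 168 RGL/astrocyte-like cells, which allows a share of up to 1.79%. Pooled over cells, the endothelial-like level of 333 CPM was at least 10211-fold higher than in RGL/astrocyte-like cells, set against a floor of 3 counts over that class, a bound that covers counting error of reads only. Adjusted p in edgeR was 3.92e-07 for that pair. The unnamed cluster had Dll4 in 3 of 36 cells. Among endothelial-like cells 25 had counts of both Notch1 and Dll4, 35 of Notch1 alone, 10 of Dll4 alone and 17 of neither.

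The ligand Jag1, which is made by endothelium and by mural cells, was detected in 35.4% of mural-like, 20.7% of endothelial-like and 2.98% of RGL/astrocyte-like cells. In mural-like cells 1 antagomir mouse had 159 CPM, while the other 7 mice had 0 to 48.2 CPM. The mural-like mean of 38.9 ± 51.2 CPM was above the oligodendrocyte-like mean of 0.549 ± 1.52 CPM (SD, n = 8, edgeR adjusted p = 0.0461). Adjusted p ran from 0.0537 to 0.119 when mouse 1, 2, 3, 4, 5, 7 or 8 was left out, and was 0.0504 with no filter on low counts. Against oligodendrocyte-like cells Jag1 was not called in endothelial-like (adjusted p = 0.117) or RGL/astrocyte-like cells (0.299), and without mouse 6 both were (0.0105 and 0.0351). It was not called between mural-like, endothelial-like and RGL/astrocyte-like cells.

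Rbpj, the nuclear partner of all Notch receptors, was not called between any 2 of the tested classes. Its mean was 12.1 ± 16.8 CPM in mural-like, 7.89 ± 4.11 in oligodendrocyte-like, 7.42 ± 5.91 in RGL/astrocyte-like (SD, n = 8 each) and 3.55 ± 4.76 CPM in endothelial-like cells (n = 7). The ranges of all 4 classes overlapped, and none of the 6 pairs was called (edgeR adjusted p from 0.422 to 0.966). It was detected in 18.9% of oligodendrocyte-like cells, and in 13.8% to 20.7% of the cells of the other tested classes. The unnamed cluster had it in 38.9% of cells (Wilson interval 24.8% to 55.1%), and in 22.9% where each cell was thinned to 200000 counts.

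**Figure D2:**
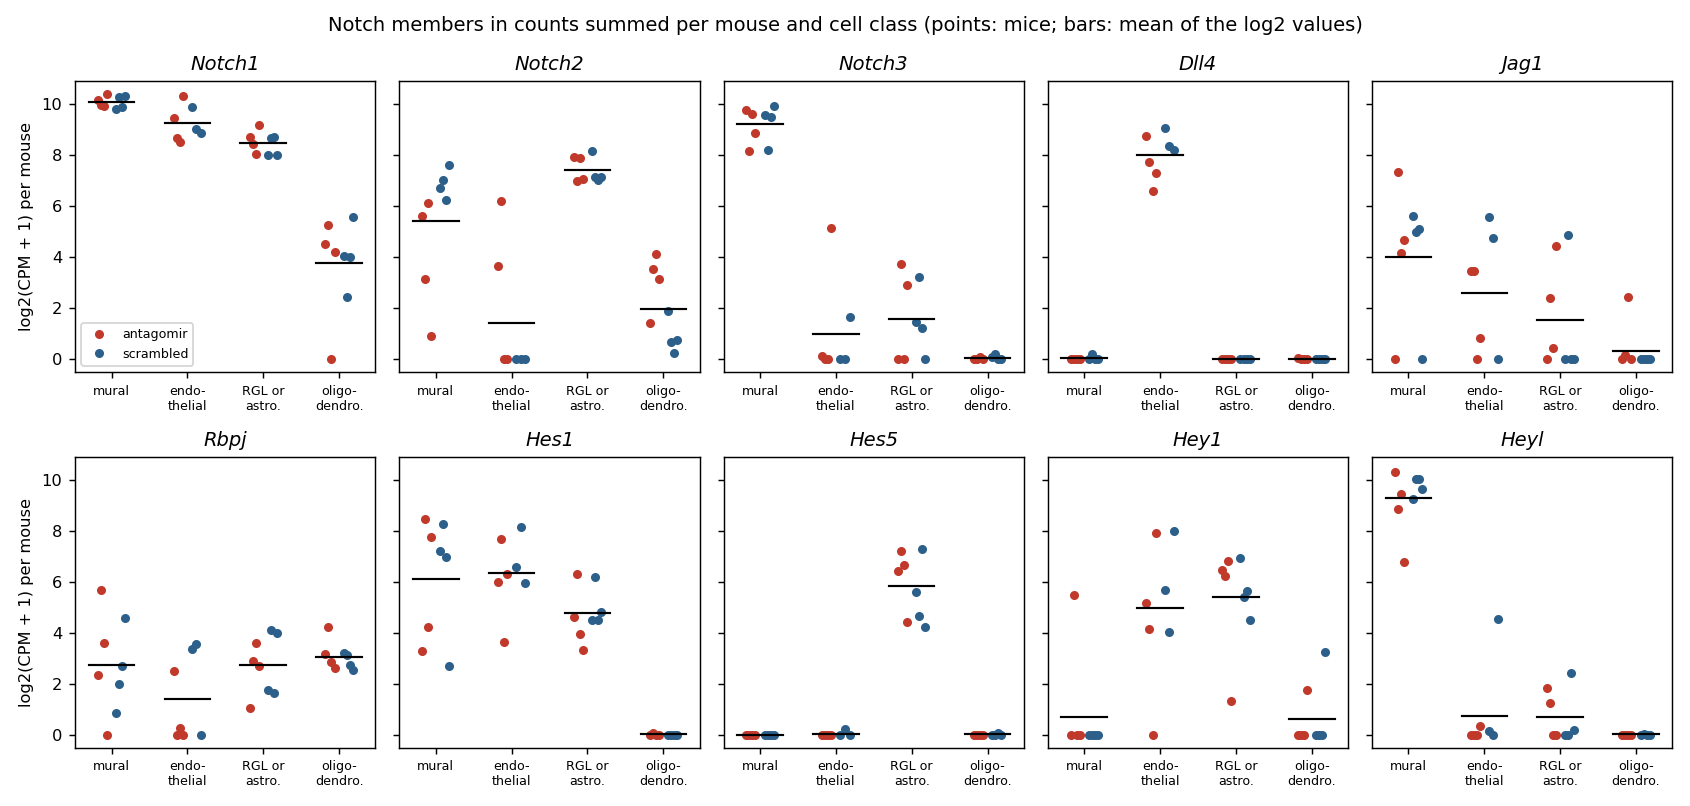
Level of each member as log2(CPM + 1) in the counts summed over the cells of a mouse and class. Each point is 1 mouse (red antagomir, blue scrambled), and bars mark the mean of the log2 values over both treatments. Notch3 and Heyl lay highest in mural, Dll4 in endothelial and Hes5 in RGL or astrocyte cells, and Rbpj ranges overlapped in all 4 classes.

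Among the effectors, each tested class with receptors had its own combination. Hes1, a repressor that responds to Notch and to other signals, was shared by the vascular and RGL/astrocyte-like classes. It was detected in 57.3% of mural-like, 59.8% of endothelial-like and 39.9% of RGL/astrocyte-like cells and in 1 of 301 oligodendrocyte-like cells. Its level ran from 5.43 to 346 CPM in mural-like cells (median 135), from 11.5 to 278 in endothelial-like (median 77.7) and from 8.998 to 76.9 in RGL/astrocyte-like cells (median 22.5), and was at most 0.0477 CPM in oligodendrocyte-like cells. The first 3 ranges overlapped one another and lay above the last. Adjusted p in edgeR for these classes against oligodendrocyte-like cells was 4.27e-09, 6.11e-09 and 2.73e-08. Endothelial over RGL/astrocyte-like cells was not called by edgeR (adjusted p = 0.454), and the exact sign-flip test gave p = 0.0313, higher in 6 of 7 mice.

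Hes5, the Hes gene most used as a marker of Notch activity in neural stem cells, was higher in RGL/astrocyte-like cells than in each of the other 3 tested classes. Its level there ran from 17.8 to 156 CPM over 8 mice (median 65.6), with counts in 46 of 168 cells (27.4%, Wilson interval 21.2% to 34.6%). It had 1 count in 1 of 87 endothelial-like cells, 1 count in 1 of 301 oligodendrocyte-like cells, and none in 82 mural-like cells, which allows a share of up to 3.66%. Every mouse of the RGL/astrocyte-like class lay above every mouse of the other 3 tested classes. Pooled over cells, its 79.9 CPM was at least 1150-fold higher than in mural-like cells, taking 3 counts as the floor there and with the same limit (edgeR adjusted p = 1.08e-05). All 5 oligodendrocyte precursor-like cells had counts of Hes5 and of Notch1, and all 5 came from 2 mice, 4 of them from 1.

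Hey1, known from arterial endothelium and from quiescent stem cells, was found in 22.0% of RGL/astrocyte-like and 14.9% of endothelial-like cells. Its level ran from 1.48 to 119 CPM in RGL/astrocyte-like (median 61.1) and from 0 to 250 CPM in endothelial-like cells (median 34.3). In mural-like cells it was present in 1 cell, of an antagomir mouse with 43.5 CPM, and at 0 in the other 7 mice. RGL/astrocyte-like cells were higher than mural-like cells in 8 of 8 mice (edgeR adjusted p = 0.0105, exact sign-flip p = 0.00781, the smallest that 8 mice allow). Endothelial-like cells were called higher than mural-like cells with adjusted p = 0.0399, and this call was lost without the cluster of 37 low-gene cells (adjusted p = 0.0510) and when mouse 1, 2, 3, 5, 6, 7 or 8 was left out (0.0660 to 0.132). The exact sign-flip test gave p = 0.0625 for that pair, higher in 5 of 7 mice. Hey1 in endothelial-like over oligodendrocyte-like cells (adjusted p = 0.0167) was lost without mouse 1, 2, 3 or 5 (0.0510 to 0.0608). Hey1 in RGL/astrocyte-like over oligodendrocyte-like cells (adjusted p = 0.0140) was lost without mouse 1 or 2 (0.0594 and 0.0568).

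Heyl, a Hey family gene of vascular smooth muscle, was high where Notch3 was high. It was detected in 59 of 82 mural-like cells (72.0%, Wilson interval 61.4% to 80.5%), and its level ran from 109 to 1262 CPM (median 747). The highest value in any other tested class was 22.1 CPM, in endothelial-like cells of 1 scrambled mouse, below the lowest mural-like mouse. The mural-like mean of 751 ± 369 CPM was 234 times that in endothelial-like cells, 3.21 ± 8.35 CPM (edgeR adjusted p = 2.43e-05), and adjusted p was 4.50e-06 against RGL/astrocyte-like cells. Of the 82 mural-like cells, 56 had counts of both Notch3 and Heyl, 20 of Notch3 alone, 3 of Heyl alone and 3 of neither. Cells with Heyl had a median of 546916 counts and cells without it 396858, and the part of depth in this share was not tested. In the cluster led by Acta2 Heyl was detected in 6 of 8 cells, and in that led by Abcc9 in 71.6%. At low levels Heyl was also called higher in RGL/astrocyte-like (1.03 ± 1.597 CPM) and endothelial-like cells than in oligodendrocyte-like cells (adjusted p = 0.00783 and 0.0255), with counts in 4 of 8 and 3 of 7 mice. The exact sign-flip test gave p = 0.125 and 0.25 for these pairs. The second call was lost without mouse 5 (0.312) or mouse 8 (0.0575), and with wells of at least 1000 genes (0.0558).

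Set against one another, the 3 classes with receptors differed in Notch2, Notch3, Dll4, Hes5, Hey1 and Heyl. Of 10 members, 2 were higher in RGL/astrocyte-like than in endothelial-like cells, Notch2 and Hes5 (17.2% of all genes were called in that direction), and 1 was higher in endothelial-like cells, Dll4 (6.41%). Hey1 and Hes5 were higher in RGL/astrocyte-like than in mural-like cells (15.8% of all genes), and Notch3 and Heyl were higher in mural-like cells (5.42%). Dll4 and Hey1 were higher in endothelial-like than in mural-like cells (5.23% of all genes), and Notch3 and Heyl higher in mural-like cells (5.27%). That Hey1 call depended on the mice and cells included, as given above. Counts of 1 or 2 of 10 members are too few to set apart from the shares of all genes, and no excess is read from them. Each class also held counts of another class's markers. The summed level of 14 endothelial markers in mural-like cells ran from 663 to 2344 CPM in antagomir and 458 to 1569 CPM in scrambled mice, against 36185 to 46528 and 36202 to 44875 CPM in endothelial-like cells themselves. The summed level of 14 mural markers in endothelial-like cells ran from 487 to 1398 CPM in antagomir and 419 to 2676 CPM in scrambled mice. The part of these counts in the low Notch3 and Heyl values of endothelial-like cells was not tested.

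Between the unnamed cluster and the RGL/astrocyte-like class, the mean share of cells per mouse differed most, of all members, for Hes1, Rbpj and Hes5. Hes5 was detected in 19 of 36 cells of the unnamed cluster (52.8%, Wilson interval 37.0% to 68.0%) and in 46 of 168 RGL/astrocyte-like cells (27.4%). Hes1 went the other way, in 6 of 36 cells (16.7%, 7.87% to 31.9%) and in 67 of 168 (39.9%, 32.8% to 47.4%). Per mouse, Hes5 was detected in 51.2% ± 19.6 of the cells of the unnamed cluster and 27.99% ± 10.4 of RGL/astrocyte-like cells (SD, n = 8), higher in the unnamed cluster in 7 of 8 mice. Hes1 was detected in 10.7% ± 21.3 and 41.2% ± 12.98, lower in the unnamed cluster in 7 of 8 mice. Rbpj was detected in 41.7% ± 30.3 and 14.7% ± 5.37, higher in the unnamed cluster in 7 of 8 mice. Its share in the unnamed cluster fell with thinning, as given above. Pooled over cells, the Rbpj level was 9.86 CPM in the unnamed cluster and 7.80 CPM in the RGL/astrocyte-like class. The median cell had 3612 and 2643 genes, and the part of this difference in the Rbpj shares was not tested. Jag1 was detected in 17.6% ± 12.3 and 2.68% ± 2.88, higher in the unnamed cluster in 6 of 8 mice. With 2 to 7 cells of the unnamed cluster per mouse, these shares are given without a test. With each cell thinned to 200000 counts, which left out 1 and 20 shallower cells, the shares were 51.4% and 27.7% for Hes5 and 17.1% and 39.2% for Hes1. Without the 37 low-gene cells, Hes5 was in 33.6% and Hes1 in 49.6% of the other 131 RGL/astrocyte-like cells. That brought Hes5 nearer to its share in the unnamed cluster and Hes1 further from it. Of the 36 cells of the unnamed cluster, 3 had counts of both Hes1 and Hes5, 16 of Hes5 alone, 3 of Hes1 alone and 14 of neither. Of the 168 RGL/astrocyte-like cells, 29 had both, 17 Hes5 alone, 38 Hes1 alone and 84 neither. Whether the 2 genes met in a cell more or less often than their shares alone would give was not tested. Notch1 was detected in 72.2% and 58.9% of the 2 groups of cells, and Notch2 in 75.0% and 70.8%.

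Within the RGL/astrocyte-like class, the cluster of 37 low-gene cells had both a lower share of cells with counts and a lower pooled level for Notch1, Notch2, Jag1, Hes1, Hes5 and Hey1. Dll4 had no counts in either cluster. For Notch3, Heyl and Rbpj the share and the pooled CPM went in opposite directions, and no order is read from them. Notch2 was detected in 24.3% of its cells and in 84.0% of the other 131, Notch1 in 16.2% and 71.0%, Hes1 in 5.41% and 49.6%, and Hes5 in 5.41% and 33.6%. The cells of that cluster held a median of 311348 counts, against 599721 in the other, and the part of depth and cell quality in these shares was not tested. The 65 cells of the class with counts of Nes had Hes5 in 26.2% (Wilson interval 17.0% to 38.0%), and the 103 without in 28.2% (20.4% to 37.5%). Hes1 was in 49.2% (37.5% to 61.1%) of the cells with Nes and 33.98% (25.6% to 43.6%) of those without.

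**Figure D3:**
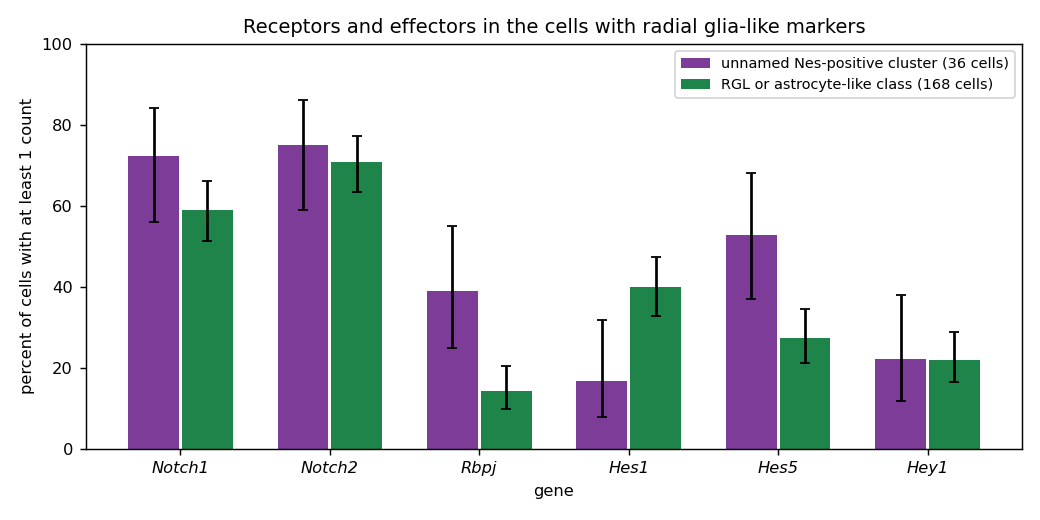
Percentage of cells with at least 1 count of 6 members in the unnamed cluster (purple, 36 cells) and in the RGL/astrocyte-like class (green, 168 cells), with Wilson 95% intervals. Hes5 and Rbpj stand higher in the unnamed cluster (52.8% and 38.9%, against 27.4% and 14.3%), and Hes1 lower (16.7% against 39.9%).

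Of the 46 other genes of the pathway that were listed, 38 could be tested between classes. Between the 2 largest classes, 4 were higher in RGL/astrocyte-like cells, where the background was the 9.33% given above, and 1 was higher in oligodendrocyte-like cells (7.96%). The 4 of 38 genes lie near that background, and no excess of the listed genes is read from them. The 4 were Lfng, which adds sugars to Notch (20.5 ± 24.8 CPM in RGL/astrocyte-like and 0.00707 ± 0.0200 CPM in oligodendrocyte-like cells), Nrarp, a feedback inhibitor and Notch target (6.01 ± 6.48 and 0 CPM), Maml2, a coactivator (77.3 ± 21.3 and 3.00 ± 2.26 CPM), and Hey2, an effector (8.35 ± 19.5 and 0 CPM, SD, n = 8 mice). Adjusted p in edgeR was 3.90e-04 for Lfng, 8.05e-04 for Nrarp, 0.00311 for Maml2 and 0.00983 for Hey2. Hey2 was found in 2.98% of RGL/astrocyte-like and 41.5% of mural-like cells, where it averaged 147 ± 118 CPM. Maml2 averaged 150 ± 139 CPM in mural-like cells. Neither was called between mural-like and RGL/astrocyte-like cells. The 1 higher in oligodendrocyte-like cells was the ligand Dll1, with 9.33 ± 8.71 CPM and counts in 7.31% of cells, against 0 CPM in RGL/astrocyte-like cells (adjusted p = 0.00471). Dll1 was also detected in 16.7% of the cells of the unnamed cluster. The median log2 difference of the 38 genes, oligodendrocyte-like minus RGL/astrocyte-like, was 0.08.

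Genes with the pattern most like each member were sought by Pearson's r of log2(CPM + 1) over the 31 sums of a class and mouse, among 9686 genes. These points share mice and differ mainly by class, so r describes the classes. The nearest gene was Tbx3os1 for Notch3 (r = 0.97), Ptprb for Dll4 (0.99), Casq2 for Heyl (0.99) and Gli2 for Hes5 (0.98). It was Crip2 for Notch1 (0.91), Osmr for Hes1 (0.90), Prkcd for Hey1 (0.84) and Cth for Notch2 (0.84). The weakest were Rbpj with Atg16l1 (0.79) and Jag1 with Ppic (0.70), and Hes1 was the second nearest to Jag1 (0.70).

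The antagomir and scrambled mice were then compared for each member. No member was called in all cells or in any of the 4 tested classes by edgeR's quasi-likelihood test at an adjusted p under 0.05. Nor was any gene in the whole table, so the share called was 0% of 15447 genes in all cells, 0% of 10071 among RGL/astrocyte-like, 0% of 7720 among endothelial-like, 0% of 6788 among mural-like and 0% of 10778 among oligodendrocyte-like cells. At an unadjusted p under 0.05 there were 280 genes (1.81%) in all cells, and in the 4 classes 158 (1.57%), 163 (2.11%), 61 (0.899%) and 212 (1.97%), of which Notch2 in oligodendrocyte-like cells was the 1 member. In the order above, DESeq2's Wald test called 10, 8, 66, 22 and 13 genes, with no member among them. In all cells, fewer cells of a class and less RNA per cell cannot be told apart. Mural-like cells were 11.6% ± 4.10 of cells in antagomir and 11.2% ± 3.18 in scrambled mice, endothelial-like 11.6% ± 5.61 and 12.5% ± 7.02, RGL/astrocyte-like 26.0% ± 11.2 and 21.1% ± 7.44, and oligodendrocyte-like 40.1% ± 10.4 and 44.2% ± 7.49 (SD, n = 4 mice each). Each of these differences was smaller than the SD between mice.

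Of the receptors, Notch1 in RGL/astrocyte-like cells had 417, 340, 259 and 574 CPM in the antagomir mice, against 253, 399, 420 and 252 CPM in the scrambled mice. The groups overlapped. The difference was 0.24 on the log2 scale (95% interval -0.47 to 0.96, edgeR adjusted p = 1.00). In endothelial-like cells Notch1 averaged 690 ± 422 CPM in 4 antagomir and 639 ± 265 CPM in 3 scrambled mice (0.01, interval -1.21 to 1.23), and in mural-like cells 1109.5 ± 161 and 1079.6 ± 197 CPM (0.04, interval -0.69 to 0.77). Notch2 in RGL/astrocyte-like cells averaged 182 ± 62.6 CPM in antagomir and 172 ± 72.8 CPM in scrambled mice (0.05, interval -0.82 to 0.93). Both genes hold the seed match shown above, and the differences were not called. Values of genes with the match went in both directions in other classes. Dll4 in endothelial-like (-0.83) and Notch2 in mural-like cells (-1.88) were lower in antagomir mice, and Notch2 in oligodendrocyte-like cells was higher (3.07). None of these was called, and a link to the match was not tested.

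Notch2 in mural-like cells was the 1 member whose groups of mice did not overlap. It had 46.9, 7.81, 68.5 and 0.878 CPM in the antagomir mice, against 102, 127, 74.8 and 191 CPM in the scrambled mice. Every antagomir mouse lay below every scrambled mouse. The log2 difference was -1.88 (95% interval -5.23 to 1.47), with adjusted p = 1.00 in edgeR. Over 14 alternatives it ran from -2.94 with the replicate block to -1.22 with limma on the mean log2 value per cell. In mural-like cells 2.37% of all tested genes had such groups, and 1 of 7 tested members did. No member did in all cells (1.95% of genes), or in RGL/astrocyte-like (2.41%), oligodendrocyte-like (2.18%) or endothelial-like cells (5.16%). Notch2 was detected in 22 of 82 mural-like cells. Within pools the log2 difference was -0.68 in pool L5 and -5.08 in pool L6, and within sort days -2.15 on day 1 and -1.66 on day 2.

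Notch3 in mural-like cells had 876, 286, 775 and 462 CPM in the antagomir mice, against 756, 290, 711 and 974 CPM in the scrambled mice, and the groups overlapped (log2 difference -0.16, 95% interval -1.30 to 0.98). Heyl in the same cells had 1262, 457, 695 and 109 CPM in the antagomir mice, against 605, 1035, 1044.5 and 799 CPM in the scrambled mice. The lowest and the highest mouse were both antagomir mice (log2 difference -0.43, interval -1.77 to 0.90). It was -0.99 without mouse 2, -0.083 without mouse 8, -0.90 with the replicate block and -1.87 with limma on the mean log2 value per cell. Within pools the difference for Heyl was 0.19 in L5 and -1.65 in L6.

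Dll4 in endothelial-like cells had 432, 210, 94.4 and 157 CPM in the antagomir mice, against 531, 325 and 288 CPM in the scrambled mice. The 3 lowest values were of antagomir mice, and the highest antagomir mouse lay within the scrambled range. The log2 difference was -0.83 (95% interval -2.31 to 0.65, edgeR adjusted p = 1.00), with 5 to 17 endothelial-like cells per antagomir mouse and 11 to 19 per scrambled mouse. Hes1 in the same cells averaged 88.3 ± 80.8 CPM in antagomir and 144 ± 117 CPM in scrambled mice (-0.83, interval -3.32 to 1.66). In mural-like cells Hes1 averaged 147 ± 164 and 145 ± 122 CPM (-0.10, interval -2.91 to 2.72).

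Hes5 in RGL/astrocyte-like cells had 84.6, 147, 99.2 and 20.3 CPM in the antagomir mice, against 46.6, 24.4, 156 and 17.8 CPM in the scrambled mice. Both groups held high and low mice (log2 difference 0.46, 95% interval -1.26 to 2.18, edgeR adjusted p = 1.00). Within pools the difference was -0.17 in L5 and 1.96 in L6, and within sort days 1.66 on day 1 and -0.60 on day 2. In all cells Hes5 averaged 33.4 ± 24.2 CPM in antagomir and 19.8 ± 16.7 CPM in scrambled mice (0.70, interval -1.06 to 2.45). Hes1 in RGL/astrocyte-like cells averaged 30.9 ± 31.2 and 35.5 ± 24.6 CPM (-0.24, interval -2.38 to 1.90).

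**Figure D4:**
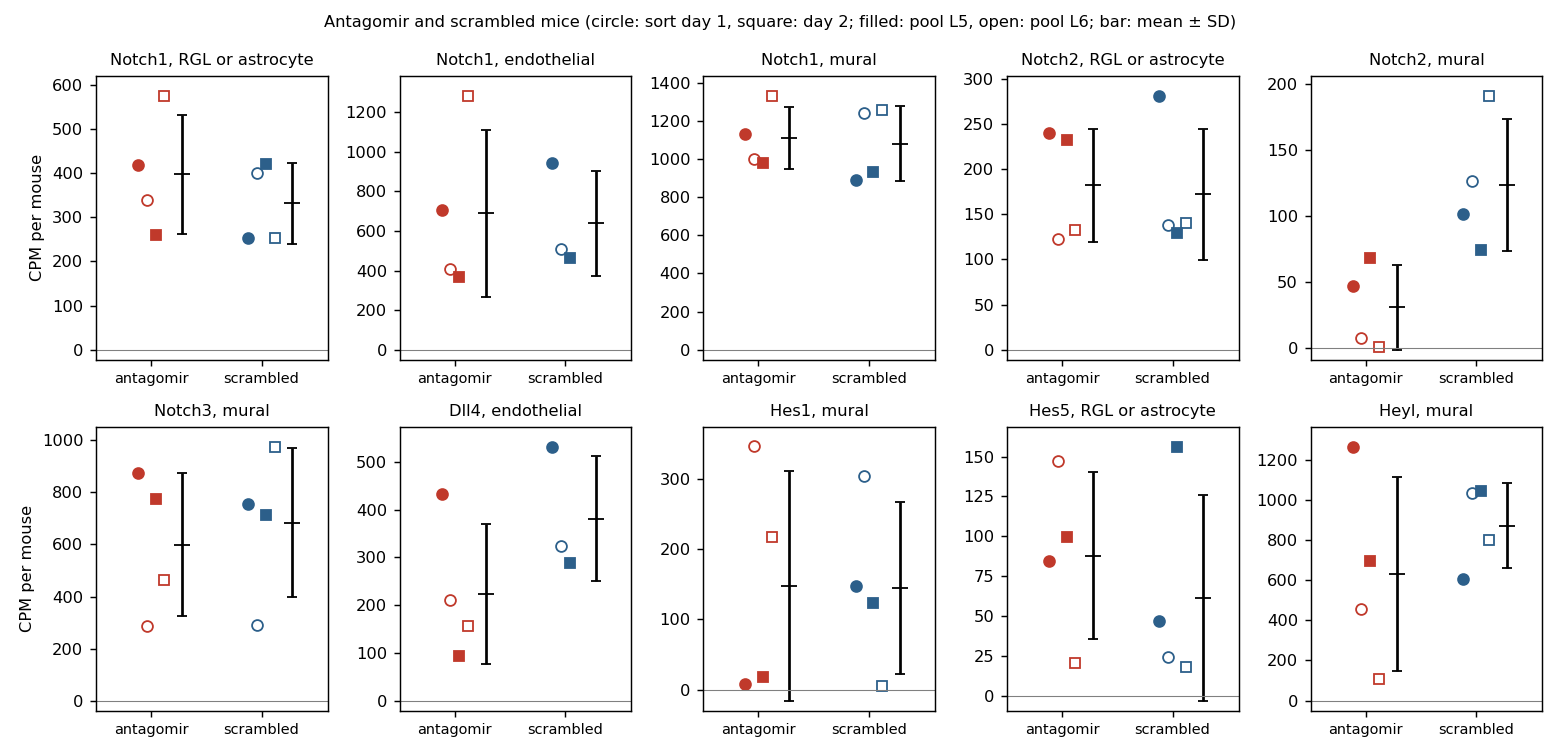
CPM per mouse in antagomir (left, red) and scrambled mice (right, blue) for 10 pairs of member and class, with the mean ± SD. Circles are sort day 1 and squares day 2, filled for pool L5 and open for L6. The groups overlap in each panel except Notch2 in mural cells, where the antagomir mice lie between 0.878 and 68.5 CPM and the scrambled mice between 74.8 and 191 CPM.

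Jag1 in mural-like cells averaged 50.1 ± 73.3 CPM in antagomir and 27.8 ± 20.2 CPM in scrambled mice (log2 difference 0.72, 95% interval -4.34 to 5.77). Of the receptors in all cells, Notch1 averaged 286 ± 30.1 CPM in antagomir and 277 ± 86.4 CPM in scrambled mice (log2 difference 0.02), Notch2 63.0 ± 31.9 and 60.1 ± 20.002 CPM (0.02) and Notch3 57.8 ± 45.3 and 65.3 ± 25.5 CPM (-0.23). Of the ligands in all cells, Dll4 averaged 29.6 ± 32.3 CPM in antagomir and 38.4 ± 40.0 CPM in scrambled mice (-0.39) and Jag1 7.71 ± 8.22 and 8.30 ± 5.50 CPM (-0.14). Rbpj averaged 8.49 ± 4.03 CPM in antagomir and 8.003 ± 2.76 CPM in scrambled mice (0.05). Of the effectors, Hes1 averaged 32.9 ± 35.4 CPM in antagomir and 35.7 ± 26.8 CPM in scrambled mice (-0.14), Hey1 24.4 ± 6.55 and 23.5 ± 13.7 CPM (0.02), and Heyl 61.4 ± 41.6 and 87.9 ± 32.9 CPM (-0.56; SD, n = 4 mice each). The antagomir and scrambled mice overlapped for each of these. Over the 10 members in all cells the median log2 difference was -0.06, against 0.00 over all tested genes. In oligodendrocyte-like cells Notch2 averaged 9.03 ± 5.99 CPM in antagomir and 1.03 ± 1.13 CPM in scrambled mice, with counts in 19 of 141 and 23 of 160 cells. This value was chosen after the values were seen. The groups overlapped, and the log2 difference was 3.07 (95% interval 0.20 to 5.94, edgeR adjusted p = 1.00). Over 14 alternatives it ran from 0.21 to 4.26. The test of whether the response differed between RGL/astrocyte-like and oligodendrocyte-like cells gave 0% of 13034 genes called, and Notch2 had a difference in response of -3.34 on the log2 scale (SE 1.01, edgeR adjusted p = 1.00).

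Of the other 46 genes of the pathway, 42 were tested between treatments in all cells and 0 were called by edgeR, with 2 at an unadjusted p under 0.05, where 1.81% of all 15447 genes were. Among these was Ctbp1, a corepressor, with 76.6 ± 23.8 CPM in antagomir and 119 ± 21.9 CPM in scrambled mice (log2 difference -0.67). Psen2, a subunit of the γ-secretase that cuts Notch, had 33.6 ± 10.8 CPM in antagomir and 18.2 ± 9.93 CPM in scrambled mice (SD, n = 4 each; log2 difference 0.85), and was not among the 2. Both named genes had an edgeR adjusted p of 1.00. The intervals of the log2 differences describe the precision of these comparisons and are not adjusted for the number of genes tested. Their median half-width among genes over 20 CPM was 0.82 in all cells and 0.91 for oligodendrocyte-like cells. It was 1.87 for RGL/astrocyte-like, 4.36 for mural-like and 4.44 for endothelial-like cells. A call needed a low adjusted p, so these half-widths do not give the smallest difference that could be called. Ctbp1 in all cells was not called, although its interval ran from -1.25 to -0.084.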

How the data were processed

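The deposited table holds whole-number read counts per gene and well, which the authors made with no normalization. Per the submitters' processing notes, STAR 2.5.2, featureCounts 1.5.1, Seurat 2.3.1, FastQC, Subread and the build mm10 were used, with settings that the notes do not list. Smart-seq2 was primed with oligo-dT per the labels' protocols, so mature microRNAs were not measured, and Nextera XT libraries were run on a NextSeq500. A deposited well table gives the treatment, mouse, sort day and pool of each well. The mouse served as the replicate, since nothing links the 2 GEO samples of each treatment to single mice.

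Wells with 500 to 6000 detected genes were kept, which left out 36 below and 16 above. The kept wells held 4118 to 1640971 counts. Cells were clustered in scanpy 1.11.5 (counts scaled to 10000 per cell, 2000 variable genes, 20 components, 15 neighbours, Leiden resolution 1) without the Notch pathway genes, and 99.9% of cells kept their class when these were included. A class name needed at least 3 of its markers in 25% of the cells, a mean log2 difference of its markers from the other cells above 1, and no other class with more markers among the leading genes. No doublet caller was run, and 77 cells had at least 3 markers of 2 classes and 22 of 3 or more. Members and lists were chosen with earlier results of these data known. The 10 members were all named, with treatment values given in all cells and in each class where a member averaged at least 20 CPM and was found in 25% of cells. Other pathway genes were named by their test between the 2 largest classes or by the smallest p between treatments, and some that the rule would name are not reported here.

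Counts were summed per mouse, or per mouse and class where a mouse had at least 5 cells, and CPM was computed from these sums of the deposited counts. Sums were tested with edgeR 4.0.16 in R 4.3.3 (quasi-likelihood test, TMM scaling, filterByExpr, Benjamini-Hochberg adjustment, threshold 0.05), with the mouse as a block between classes and no covariate between treatments. Single values between classes were also compared by an exact two-sided sign-flip test over mice on log2(CPM + 1). The fits were also run on simulated counts made from the real means, with the same dispersion (spread beyond counting error) for every gene and class. The simulation therefore did not carry the real spread between mice, and nothing is concluded from it here. The alternatives were DESeq2 1.42.0, limma 3.58.1, other scaling, no filter, at least 1000 genes per well, a block of day and pool, and leaving out each mouse. Leaving out the low-gene astrocyte cluster was added after seeing the data.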

Additional observations from a re-analysis of the deposited data

Results flagged for a closer look

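In each group of 4 to 8 mice, the gap between the most extreme mouse and its neighbour was set against the range of the group. Of 56 groups examined, 6 held a mouse that stood apart. The threshold would flag about 1 in 20 groups by chance if groups were independent and normally distributed. These groups overlap, since all cells hold each class, and Jag1 in antagomir mouse 4 was flagged repeatedly. The 6 flags are therefore not read against that rate. Notch2 in RGL/astrocyte-like cells had 281 CPM in scrambled mouse 1, with the next scrambled mouse at 140 CPM. Hes1 in the same class had 72.2 CPM in scrambled mouse 3, with the next at 27.3 CPM. Dll4 in all cells had 78.0 CPM in antagomir mouse 2, with the next antagomir mouse at 14.8 CPM, and that mouse gave 17 endothelial-like cells against 5 to 11 in the other antagomir mice. Jag1 stood apart in antagomir mouse 4, with 19.9 CPM in all cells against 4.66 CPM in the next antagomir mouse. In mural-like cells the same mouse had 159 CPM of Jag1, with 24.6 CPM in the next antagomir mouse and 48.2 CPM in the next of all 8 mice.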

How the results depend on the processing

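Between treatments, edgeR called 0 genes in all cells and in each class with all mice and whichever mouse was left out. DESeq2's Wald test called 10 genes in all cells, 66 in endothelial-like, 22 in mural-like, 13 in oligodendrocyte-like and 8 in RGL/astrocyte-like cells, and with no filter edgeR called 6 in endothelial-like and 4 in mural-like cells. No member was called in any class where it could be fitted under these settings, and the cause of the differences was not tested. Of the treatment values of members under alternatives, 54 changed sign and 279 did not. Notch1 in endothelial-like cells became -0.016 with no filter, -0.47 with the replicate block and -0.49 with limma. Notch2 in all cells became -0.046 with the replicate block and -0.0061 with wells of at least 1000 genes, and in RGL/astrocyte-like cells -0.40 with limma and -0.043 with those wells. Dll4 in all cells became 0.081 with the replicate block, Jag1 in mural-like cells -0.24 and Rbpj in all cells -0.021 with limma, and Hey1 in all cells -0.15 without the low-gene cluster.

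Of 23 treatment values of members, 15 gave ranges across zero when each mouse was left out, and 8 kept their sign. The 8 were, in all cells, Hes5 (0.30 to 1.21) and Heyl (-0.99 to -0.23), in RGL/astrocyte-like cells Notch1 (0.0024 to 0.40) and Hes5 (0.12 to 1.52), in endothelial-like cells Dll4 (-1.52 to -0.42) and Hes1 (-1.47 to -0.048), and in mural-like cells Notch2 (-2.70 to -1.48) and Heyl (-0.99 to -0.083). Of the 15, the ranges in all cells were -0.10 to 0.25 for Notch1, -0.26 to 0.22 for Notch2, -0.89 to 0.032 for Notch3, -1.52 to 0.58 for Dll4, -1.19 to 0.38 for Jag1, -0.27 to 0.20 for Rbpj, -1.17 to 0.41 for Hes1 and -0.25 to 0.30 for Hey1. In RGL/astrocyte-like cells they were -0.13 to 0.41 for Notch2 and -1.17 to 0.32 for Hes1, and in endothelial-like cells -0.46 to 0.51 for Notch1. In mural-like cells they were -0.016 to 0.11 for Notch1, -0.41 to 0.088 for Notch3, -1.09 to 1.19 for Jag1 and -0.95 to 0.50 for Hes1. Between classes, mural minus endothelial ran from -0.22 to 2.83 for Jag1 and from -0.10 to 0.53 for Hes1. Members called higher in endothelial-like than in mural-like cells fell to 1 without the low-gene cluster, and numbered 1 to 2 over the mice left out. Those higher in endothelial-like than in oligodendrocyte-like cells numbered 3 to 6.

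The replicate block paired the antagomir and scrambled mouse of the same day and pool. Their deviations correlated at -0.00284 to 0.147 over 19 pairs, so these mice were not treated as paired, and edgeR with the block called 0 genes in every class. The share of RGL/astrocyte-like cells with Notch2 was 55.4% at a minimum of 10 counts.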
